A study of Mus musculus with 8 samples.

Results

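The B7 family and the other costimulatory ligands examined here are 10 genes, Cd80, Cd86, Cd274, Pdcd1lg2, Icosl, Vsir, Lgals9, Cd40, Cd48 and Sema4a, taken by symbol from the deposited expression values. All 10 were found, each once, among 16486 entries. They were measured by bulk RNA-Seq in 8 libraries of monocytes (MCs) sorted from mouse blood as CD11b+Ly6G- cells with high (Ly6Chigh) or low (Ly6Clow) surface Ly6C. Control (CT) mice, C57/BL6 and wild type, gave 2 libraries of each subset. T1DM mice, C57/BL6 mice made diabetic with streptozotocin (STZ, a beta cell toxin; 5 daily doses of 50 mg/kg, the first at 8 weeks), gave 1 library of each subset. T2DM mice, db/db animals that lack a working leptin receptor and are obese as well as diabetic, also gave 1 of each. All mice were male, fed normal chow and killed at 20 to 22 weeks, and each library was made from material pooled over 5 mice. The sequencer was a NextSeq 500 for CT and a HiSeq 4000 for both diabetic models, and its effect and that of diabetes cannot be told apart. The study's methods describe RNA pooled over the mice of a group and then sequenced in duplicate, so the CT duplicates of a subset are read here as repeats of 1 pool. P-values therefore measure the spread between these libraries, which may be technical, and not that between mice. Where both diabetic models form 1 group, that spread also holds the difference between the models. Duplicates are also described for the diabetic groups, whose further libraries were not analysed here.

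T cells need a signal beside that of the antigen receptor, and the ligands that give it sit on antigen-presenting cells such as MCs. CD80 and CD86 bind CD28, which activates the T cell, and CTLA4, which restrains it. PD-L1, PD-L2, VISTA and galectin-9 mostly restrain T cells, ICOSL and CD48 help to activate them, and CD40 is a receptor through which helper T cells activate the presenting cell. In mouse blood, Ly6Chigh MCs are the classical, short-lived, tissue-entering cells, and Ly6Clow MCs are the nonclassical cells that patrol vessel walls.

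Values are the deposited log2 expression values. Without read counts the depth of single values is unknown, and levels were compared between libraries and not between genes. A gene was called a DEG when limma gave a Benjamini-Hochberg adjusted p-value under 0.01 over all genes and the absolute log2FC was above 1. In bulk RNA, fewer cells of a type and less RNA per cell cannot be told apart.

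Expression of the ligands split by MC subset. Ly6Chigh MCs had less Cd274 and Pdcd1lg2, the 2 ligands of PD-1, and more Vsir, Lgals9 and Sema4a than Ly6Clow MCs. Cd86, Icosl, Cd40 and Cd48 overlapped between the subsets. In the pooled test of the subsets, which used the 8 libraries with mouse group as covariate, 3 of 10 ligands were called higher in Ly6Chigh MCs and 2 lower, where 5.37% and 6.76% of all genes were called higher and lower. In CT MCs alone, with 2 libraries a subset, 2 were called higher (Lgals9 and Sema4a) and 1 lower (Cd274), against 2.1% and 1.43% of all genes. The median log2FC of the 10 ligands was -0.04 in the pooled test and 0.04 in CT, beside -0.08 and -0.09 over all genes. For 6 of 10 ligands no Ly6Chigh library overlapped any Ly6Clow library, which held for 32.8% of all genes. Without any 1 of the CT libraries, which leaves 1 residual degree of freedom, limma called 0 ligands and 0 genes in CT. It also called 0 of both with eBayes without trend (adjusted p-values of 0.0253 for Cd274, 0.0236 for Lgals9 and 0.0304 for Sema4a) and with the replicate number as a block (0.0323, 0.0313 and 0.0353). Without 1 CT library the CT log2FC ran from -2.23 to -1.85 for Cd274, from 1.49 to 1.67 for Lgals9 and from 1.12 to 1.31 for Sema4a. The pooled test called 5 ligands without each of them.

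**Figure D1:**
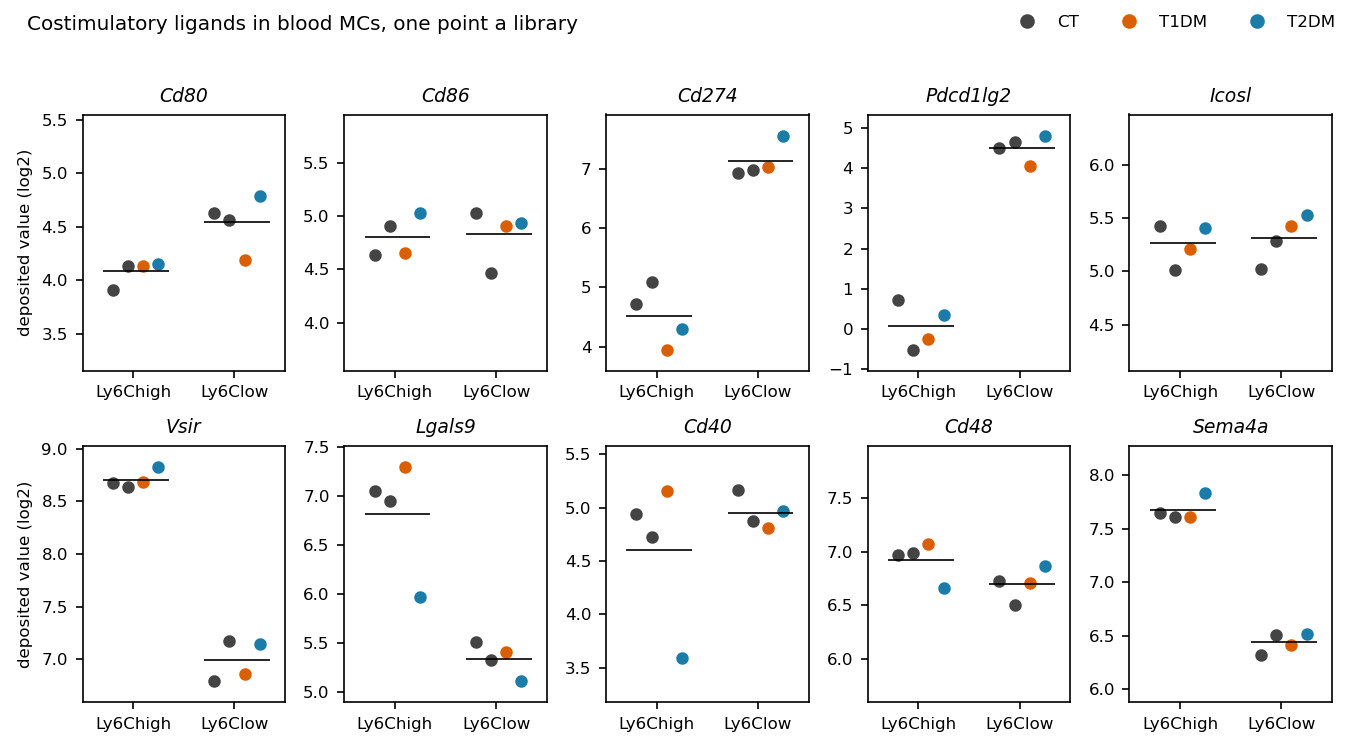
Deposited log2 value of each ligand (vertical axis, with its own scale in every panel) in Ly6Chigh and Ly6Clow MCs; points are single libraries and horizontal lines the mean of 4 libraries. Cd274 and Pdcd1lg2 lie lower in all Ly6Chigh libraries, Vsir, Lgals9 and Sema4a lie higher, and the T2DM Ly6Chigh library stands apart for Lgals9 (5.97) and Cd40 (3.59).

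The ligands of PD-1 showed the widest range between the subsets. Cd274 encodes PD-L1 and Pdcd1lg2 encodes PD-L2, and the genes are neighbours on 1 chromosome. In RefSeq annotation GRCm38.p6, the build that the labels name as mm10, Cd274 lies at chr19:29362107-29388095 and Pdcd1lg2 at chr19:29410919-29472927, 22824 bases apart with no other protein-coding gene starting between them. The 250 bases before each RefSeq start are shown because these neighbours were lower in the same libraries. For Cd274 this is a start inside the gene span given above, and for Pdcd1lg2 it is the first base of the span. Cd274 is read from chr19:29367188-29367437 and Pdcd1lg2 from chr19:29410669-29410918, both on the plus strand. No capitals appear in them, because none of 6 motifs searched on both strands was found.
Cd274: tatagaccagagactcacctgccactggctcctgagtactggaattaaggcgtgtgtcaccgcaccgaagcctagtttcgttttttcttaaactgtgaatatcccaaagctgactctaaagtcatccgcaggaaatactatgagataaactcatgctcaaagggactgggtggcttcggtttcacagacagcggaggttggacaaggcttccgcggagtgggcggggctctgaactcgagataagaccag
Pdcd1lg2: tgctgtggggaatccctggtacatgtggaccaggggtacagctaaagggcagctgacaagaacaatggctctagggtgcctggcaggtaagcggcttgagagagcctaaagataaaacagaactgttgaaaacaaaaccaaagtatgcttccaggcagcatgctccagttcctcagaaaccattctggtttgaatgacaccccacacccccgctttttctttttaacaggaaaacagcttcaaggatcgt
The motifs were TTCNNNGAA (GAS), GAAA, 2 free bases and GAAA (ISRE type), GGG, 2 free bases and TTTCC (NF-kB type), GAGGAAG (PU.1 type), TTGNGNAA (C/EBP type) and AAAGGTCA (NBRE). They occur in 7.02%, 2.98%, 1.41%, 10.6%, 11.7% and 1.34% of the 32851 RefSeq promoter windows of the same length. The absence of a match says only that these letters are not in the window. GC content was 50.4% before Cd274, with 11 CpG, and 48.4% before Pdcd1lg2, with 3.

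Cd274 had log2 values of 4.72 and 5.10 in CT Ly6Chigh MCs and 6.92 and 6.98 in CT Ly6Clow MCs. The diabetic Ly6Chigh libraries lay lower still, at 3.96 in T1DM and 4.30 in T2DM, and their Ly6Clow libraries lay at 7.03 and 7.55. Every Ly6Chigh library was below every Ly6Clow library, with a gap of 1.82. In CT the log2FC was -2.04 (SE 0.16, limma adjusted p-value 0.00953), a 4.12-fold lower level in Ly6Chigh MCs. The pooled log2FC was -2.60 (SE 0.22, limma adjusted p-value 4.82e-05), or 6.07-fold.

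Pdcd1lg2 was near the low end of the data in Ly6Chigh MCs, where the CT libraries had 0.73 and -0.51, T1DM had -0.25 and T2DM had 0.35. The Ly6Clow values were 4.50 and 4.65 for CT, 4.06 for T1DM and 4.80 for T2DM. The subsets were separated by a gap of 3.32, the widest among the 10 ligands. The CT Ly6Chigh duplicates differed by 1.24, more than the median of 0.72 among the 1722 genes within 0.5 of its level, so the fold is imprecise. The pooled log2FC was -4.42 (SE 0.31, limma adjusted p-value 1.75e-05). The CT log2FC of -4.47 (SE 0.51) missed the threshold with a limma adjusted p-value of 0.0171. It passed with genes of low mean value left out (limma adjusted p-value 0.00332), with 1 added on the linear scale (0.00859, log2FC -3.55) and after quantile normalization (0.00868). It did not pass with eBayes without trend (limma adjusted p-value 0.0325), with the replicate block (0.0457) or without any 1 of the CT libraries (0.0833 to 0.163).

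CMTM6 and CMTM4 keep PD-L1 protein at the cell surface. Neither Cmtm6 nor Cmtm4 was called in CT or in the pooled test. Cmtm6 had 7.73 and 7.69 in CT Ly6Chigh and 6.92 and 6.89 in CT Ly6Clow MCs, opposite in direction to Cd274, with a pooled log2FC of 0.93 (SE 0.09, limma adjusted p-value 0.000122) that was under the fold limit. PD-1 itself, Pdcd1, was not among the entries.

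The CD28 and CTLA4 ligands differed little between the subsets. Cd80 had 3.91 and 4.14 in CT Ly6Chigh, 4.63 and 4.56 in CT Ly6Clow, 4.13 and 4.19 in T1DM Ly6Chigh and Ly6Clow, and 4.15 and 4.79 in T2DM Ly6Chigh and Ly6Clow MCs. Its Ly6Chigh libraries were all lower than its Ly6Clow libraries, but by a gap of only 0.03, which the T1DM Ly6Clow library set. The pooled log2FC of -0.46 (SE 0.16, limma adjusted p-value 0.0602) was not called. Cd86 ranged from 4.64 to 5.02 in Ly6Chigh and from 4.47 to 5.03 in Ly6Clow MCs, and its CT Ly6Clow duplicates differed by 0.56. Its pooled log2FC was -0.03 (SE 0.17, limma adjusted p-value 0.909). Icosl, the ligand of ICOS, ranged from 5.01 to 5.42 in Ly6Chigh and from 5.02 to 5.53 in Ly6Clow MCs. Its pooled log2FC was -0.05 (SE 0.14, limma adjusted p-value 0.819), and only 1.94% of its sum of squares over the 8 libraries lay between the subsets.

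Vsir encodes VISTA, a B7 relative that restrains T cells and is abundant on myeloid cells, and its gene lies at chr10:60346851-60430294 (GRCm38.p6). It had 8.68 and 8.63 in CT Ly6Chigh and 6.79 and 7.17 in CT Ly6Clow MCs. The diabetic libraries had 8.68 and 8.82 in Ly6Chigh and 6.86 and 7.15 in Ly6Clow MCs, for T1DM and T2DM. Its subsets did not overlap, and 97.8% of its sum of squares lay between them. The pooled log2FC was 1.71 (SE 0.10, limma adjusted p-value 6.13e-06), or 3.27-fold. The CT log2FC of 1.67 (SE 0.15) just missed the threshold, with a limma adjusted p-value of 0.0112.

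Sema4a encodes a semaphorin that binds plexins and, in mouse, the T cell protein TIM-2, and its gene lies at chr3:88435959-88461182 (GRCm38.p6). It had 7.65 and 7.61 in CT Ly6Chigh, 6.32 and 6.51 in CT Ly6Clow, 7.61 and 6.41 in T1DM, and 7.83 and 6.52 in T2DM Ly6Chigh and Ly6Clow MCs. The Ly6Chigh libraries were all higher, by a gap of 1.09, and 98.1% of the sum of squares lay between the subsets. The CT log2FC was 1.22 (SE 0.09, limma adjusted p-value 0.00864) and the pooled log2FC 1.24 (SE 0.09, limma adjusted p-value 1.73e-05). After quantile normalization the CT log2FC was 0.98, under the fold limit.

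Lgals9 encodes galectin-9, a secreted lectin that binds TIM-3, and its gene lies at chr11:78962979-78984924 (GRCm38.p6). It had 7.05 and 6.95 in CT Ly6Chigh and 5.51 and 5.34 in CT Ly6Clow MCs. T1DM MCs had 7.30 in Ly6Chigh and 5.41 in Ly6Clow, while T2DM MCs had 5.97 and 5.12. The T2DM Ly6Chigh library therefore lay nearer to the Ly6Clow libraries than to the other Ly6Chigh libraries. The CT log2FC was 1.58 (SE 0.10, limma adjusted p-value 0.00735) and the pooled log2FC 1.47 (SE 0.16, limma adjusted p-value 0.000193). The single-library log2FC was 1.89 in T1DM and 0.85 in T2DM.

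The 250 bases before the Lgals9 start are shown because this was the only ligand with an ISRE-type match there, among the 8 with a promoter window. They are read on the minus strand from chr11:78984925-78985174 (GRCm38.p6, RefSeq), and the capitals mark a PU.1-type match 244 bases before the start and an ISRE-type match, on the other strand, 55 bases before it.
Lgals9: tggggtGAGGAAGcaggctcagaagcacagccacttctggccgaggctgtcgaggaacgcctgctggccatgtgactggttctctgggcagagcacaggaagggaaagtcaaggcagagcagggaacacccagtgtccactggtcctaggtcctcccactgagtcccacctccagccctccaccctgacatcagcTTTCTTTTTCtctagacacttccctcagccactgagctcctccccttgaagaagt
The matches do not overlap. PU.1-type matches were also found before Sema4a, 77 bases from 1 of its 4 starts, and a C/EBP-type match 209 bases from another. A match is a stretch of letters and not a measured site.

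Cd40 (chr2:165055614-165071654) and Cd48 (chr1:171681245-171705258) did not separate the subsets. Cd40 had 4.93 and 4.73 in CT Ly6Chigh, 5.16 and 4.88 in CT Ly6Clow, 5.15 and 4.81 in T1DM, and 3.59 and 4.96 in T2DM Ly6Chigh and Ly6Clow MCs. The T2DM Ly6Chigh library had the lowest value of the 8, and the pooled log2FC was -0.35 (SE 0.25, limma adjusted p-value 0.327). Over the alternatives it ran from -0.58 without the T1DM libraries to -0.0096 without the T2DM libraries. Cd48, the ligand of CD2 and 2B4, had 6.97 and 6.99 in CT Ly6Chigh, 6.72 and 6.51 in CT Ly6Clow, 7.07 and 6.71 in T1DM, and 6.66 and 6.87 in T2DM Ly6Chigh and Ly6Clow MCs. It was higher in Ly6Chigh MCs of CT and T1DM but lower in those of T2DM, and its pooled log2FC was 0.22 (SE 0.12, limma adjusted p-value 0.202). Over the alternatives it ran from 0.0077 after quantile normalization to 0.36 without the T2DM libraries.

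**Figure D2:**
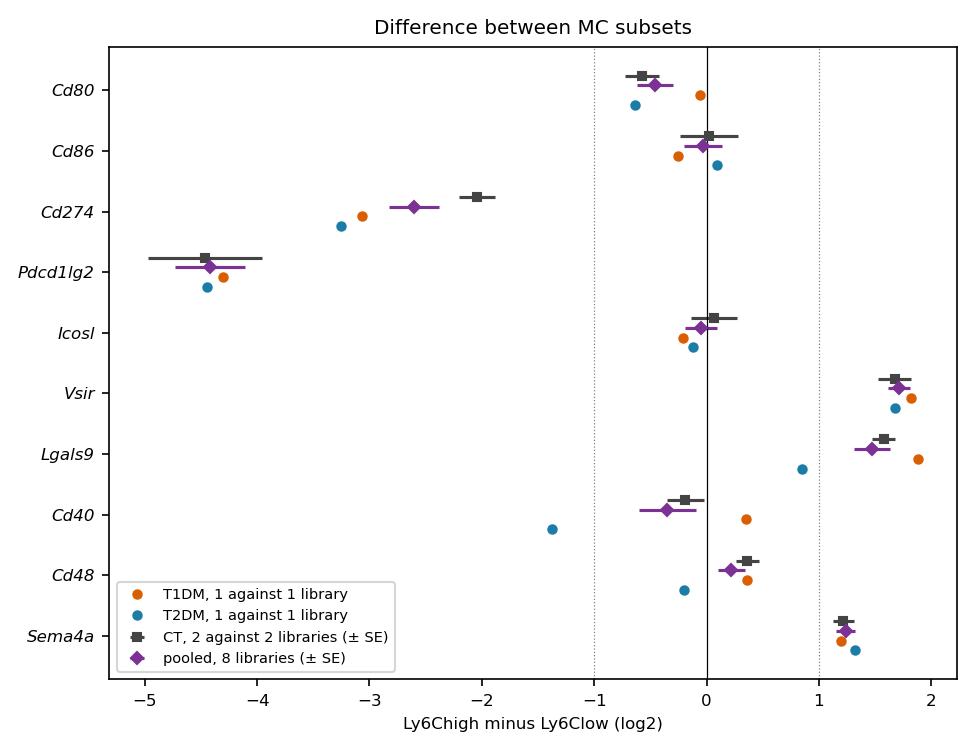
Difference between Ly6Chigh and Ly6Clow MCs (horizontal axis, log2) for each ligand, as the CT estimate and the pooled estimate, both with SE from limma, and as single-library differences in T1DM and T2DM; dotted lines mark a 2-fold difference. Cd274 and Pdcd1lg2 lie beyond -1 and Vsir and Sema4a beyond 1 in all 4 estimates, and Lgals9 in all but T2DM (0.85).

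Within diabetic mice, 5 of 10 ligands differed more than 2-fold between the subsets in T1DM and 5 in T2DM, against 27.9% and 29.1% of all genes. These are differences between 1 library and 1 library and have no test. In both models Cd274 and Pdcd1lg2 were past 2-fold lower and Vsir and Sema4a past 2-fold higher in Ly6Chigh MCs. The fifth was Lgals9 (log2FC 1.89) in T1DM and Cd40 (log2FC -1.37) in T2DM.

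Diabetic libraries were then set against the CT libraries of the same subset. In Ly6Chigh MCs, 0 ligands in T1DM and 2 in T2DM differed from the CT mean by more than 2-fold, where 10.1% and 13.8% of all genes did. In Ly6Clow MCs, 0 ligands did so in either model, where 8.81% and 10.8% of genes did. In Ly6Chigh MCs, 6 ligands in T1DM and 8 in T2DM lay outside both CT libraries, and in Ly6Clow MCs 5 and 7 did. The background is high, since 69.8%, 73.9%, 70.1% and 71.5% of all genes lay outside in these 4 comparisons, and the ligands' share is near it.

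Cd274 in Ly6Chigh MCs lay below both CT libraries in each model, by 0.95 under the CT mean in T1DM and 0.61 in T2DM. The summed linear level of 6 Ly6Clow markers there was 0.760 times the CT mean in T1DM and 0.508 times in T2DM. Nr4a1 had 7.34 and 7.03 against 8.11 and 8.08 in CT, and Treml4 had 5.77 and 6.14 against 6.90 and 6.69. Cx3cr1 had 8.63 and 7.97 against 8.59 and 8.61. In Ly6Clow MCs Cd274 was 0.07 above the CT mean in T1DM and 0.60 above it in T2DM. The NK cell sum of that T2DM Ly6Clow library was 0.235 times the CT Ly6Clow mean and its neutrophil sum 3.74 times, with Cxcr2 at 5.78 against 3.96 and 3.64. The part of these shifts in Cd274 was not tested. With both models in 1 group, limma gave Cd274 a log2FC of -0.78 (SE 0.23, p-value 0.0110, adjusted p-value 0.999) in Ly6Chigh and 0.34 (SE 0.23, adjusted p-value 1) in Ly6Clow MCs. The difference of the subset effect between diabetic and CT mice was -1.12 (SE 0.33, limma p-value 0.0104, adjusted p-value 0.655). Beside Cd274, the lowest p-values among the ligands were those of Cd40 in Ly6Chigh MCs (log2FC -0.46, SE 0.45), Icosl in Ly6Clow MCs (0.32, SE 0.20) and Cd48 in the difference of subset effects (-0.28, SE 0.24). None of these passed over all genes. In these tests a change in 1 model only adds to the spread, so the lack of a call does not show that it is absent. Over all genes, limma called 0% of genes in diabetic against CT Ly6Chigh MCs, in diabetic against CT Ly6Clow MCs, in the difference of subset effects and in T2DM against T1DM MCs. At an unadjusted p-value under 0.05 there were 739, 489, 1084 and 1576 genes in these 4 limma tests, and 1, 0, 1 and 0 ligands.

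The T2DM Ly6Chigh library held both ligands past 2-fold. Cd40 was 1.24 under the CT mean (2.36-fold lower) and Lgals9 1.03 under it (2.05-fold lower), while in T1DM Ly6Chigh MCs Cd40 lay 0.32 and Lgals9 0.29 above the CT mean. Without the second CT Ly6Chigh library both were still past 2-fold, and without the first only Cd40 was. Without that first library, Cd274 in T1DM Ly6Chigh MCs was also past 2-fold lower. In the test of T2DM against T1DM over both subsets, with 1 residual degree of freedom, Lgals9 had a log2FC of -0.81 (SE 0.31, limma adjusted p-value 0.539) and Cd274 of 0.43 (SE 0.16, limma adjusted p-value 0.531). Both missed the threshold.

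**Figure D3:**
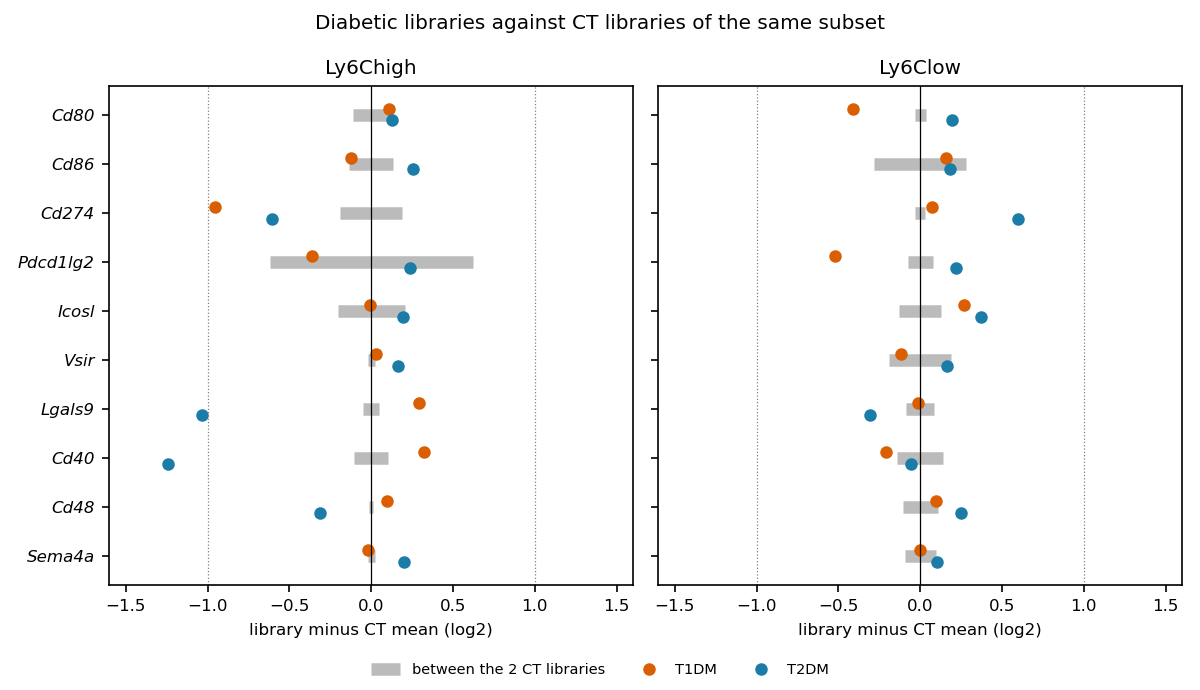
Each diabetic library's value less the CT mean of its subset (horizontal axis, log2), in Ly6Chigh and Ly6Clow MCs; grey bars span the CT libraries and dotted lines mark 2-fold. In Ly6Chigh MCs, Cd274 lies under CT in both models and Cd40 and Lgals9 pass 2-fold in T2DM only.

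The sorted cells were checked against marker lists, whose summed linear levels are given here for the lists that moved with the ligands. Ly6Chigh markers fitted the label, since Ly6c2 had 8.61 and 8.56 in CT Ly6Chigh and 4.07 and 2.69 in CT Ly6Clow MCs, and 5 of 6 of the list were called higher in the pooled test. Markers of Ly6Clow MCs were less clear. In CT, 0 of 6 were called by limma, and their sum in Ly6Clow MCs was 1.01 times that in Ly6Chigh MCs. It was 1.75 times in T1DM and 1.90 times in T2DM. Nr4a1 had 8.11 and 8.08 in CT Ly6Chigh against 7.80 and 8.02 in CT Ly6Clow MCs. Cx3cr1 (CT log2FC 0.83, SE 0.04, limma adjusted p-value 0.00541) and Itgal (0.25, SE 0.03) were also higher in CT Ly6Chigh MCs. Ace (-0.43, SE 0.07), Treml4 (-0.69, SE 0.10) and Spn (-0.71, SE 0.04) were lower there. In the pooled test Treml4 and Spn were called lower in Ly6Chigh MCs, while Cx3cr1 had a log2FC of 0.60 (SE 0.17). Monocyte markers were present in all libraries, but 4 of 7 were called higher in Ly6Chigh MCs in the pooled test, the direction of Vsir, Lgals9 and Sema4a. Their summed level in Ly6Clow MCs was 0.216 times that in Ly6Chigh MCs in CT, 0.201 times in T1DM and 0.169 times in T2DM, and its part in those ligands was not tested. Lyz2, the most abundant, made up most of that sum. It had 15.00 and 15.02 in CT Ly6Chigh and 12.55 and 12.52 in CT Ly6Clow MCs. The pooled log2FC was 2.60 for Lyz2, 2.08 for Fcgr3 and 1.87 for Cd14. It was smaller for Itgam (1.03), Cd68 (0.88), Csf1r (0.72) and Adgre1 (0.59).

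B cell markers were higher in Ly6Clow libraries, with all 12 called in the pooled test. Their summed level was 489.8 and 469.5 in CT Ly6Chigh against 5611 and 5597 in CT Ly6Clow MCs, 715 against 6199 in T1DM and 319.6 against 6715 in T2DM. Ighm, the most abundant, had 8.14 and 8.12 against 11.19 and 11.22 in CT, and Cd79a and Ms4a1 lay between 8.50 and 8.59 in CT Ly6Clow MCs. B cells can express Cd40, Cd80, Cd86 and Icosl. The list was 11.7-fold higher in CT Ly6Clow than in CT Ly6Chigh MCs, and its part in the levels of these 4 ligands was not tested. NK cell markers (6 of 7 called lower in Ly6Chigh MCs in the pooled test) and dendritic cell markers (4 of 7) followed the same direction, with sums 7.64-fold and 1.76-fold higher in CT Ly6Clow MCs. Cd274 and Pdcd1lg2 moved with these lists, and the part of such cells in their levels was not tested.

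The T2DM Ly6Chigh library, in which Cd40 and Lgals9 were low, also had the lowest B cell sum (0.666 times the CT Ly6Chigh mean), the lowest dendritic cell sum (0.559 times) and the lowest NK cell sum (0.313 times). Its neutrophil list was 5.18 times the CT mean. Most of that sum was Mmp8, which had 9.70 against 7.28 and 7.15 in CT. Mmp8 was also called higher in Ly6Chigh MCs in the pooled test (log2FC 5.56, SE 0.21). Ngp had 3.07 against 1.53 and 1.72 and Ltf had 0.42 against -2.04 and -0.55, while Retnlg had -1.55 against 1.98 and 1.46 and Cxcr2 had 2.79 against 3.07 and 2.81. Its Ly6Chigh list was 2.26 times the CT mean. Its Ly6Clow list was 0.508 times the CT mean and its platelet list 0.446 times, while in T1DM Ly6Chigh MCs the platelet list was 1.70 times. In its dendritic cell list, Itgax, the most abundant gene, had 3.25 against 5.33 and 4.52, and Flt3 had 5.76 against 5.44 and 5.58. The part of these shifts in Cd40 and Lgals9 was not tested. Of 8 T cell markers, Lck, the most abundant, was called lower in Ly6Chigh MCs in the pooled test (log2FC -2.55, SE 0.31) and reached 4.76 in T1DM Ly6Clow MCs, while Cd3e lay between 0.26 and 2.70 over the libraries. The T cell sum was 1.88-fold, 3.89-fold and 2.08-fold higher in Ly6Clow MCs in CT, T1DM and T2DM. Of 4 plasmacytoid dendritic cell markers, Pacsin1 was called lower in Ly6Chigh MCs (log2FC -3.04, SE 0.43), Siglech lay between -0.02 and 0.98, and Tcf4, the most abundant, lay between 6.92 and 7.98. The neutrophil gene Ltf lay between -2.24 and 2.71. The platelet list, led by Ppbp, had 0 of 5 called by limma in CT and in the pooled test.

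**Figure D4:**
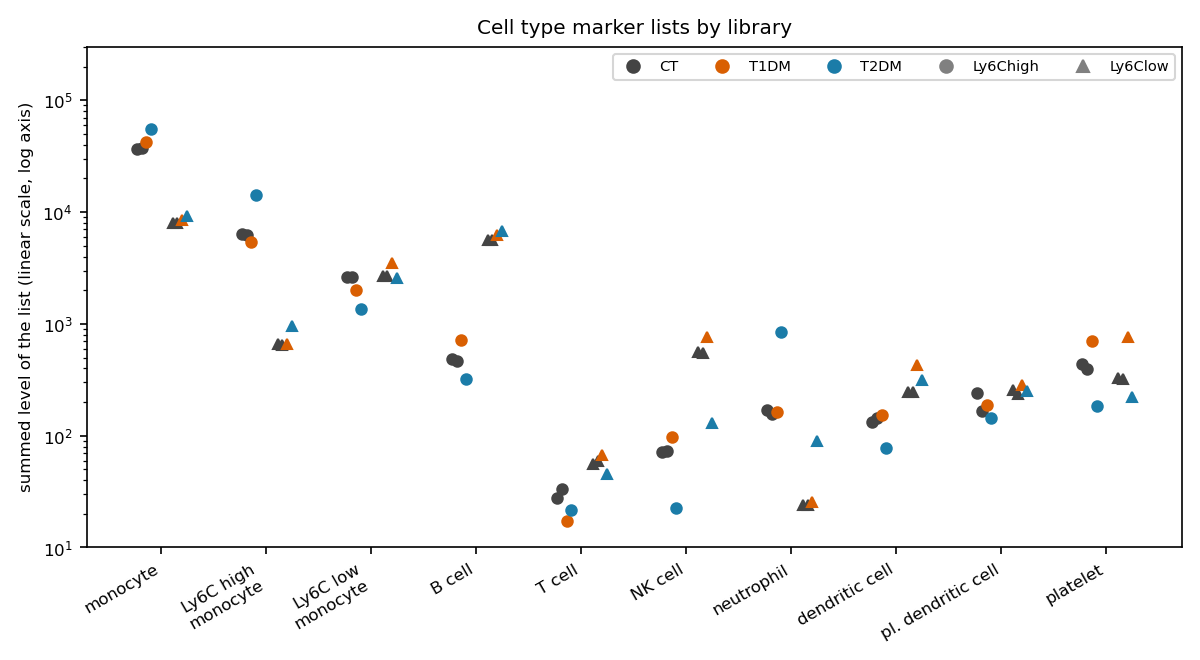
Summed linear level of each cell type marker list by library (log axis); circles are Ly6Chigh and triangles Ly6Clow libraries, coloured by mouse group. B cell sums lie between 5597 and 6715 in Ly6Clow and between 319.6 and 715 in Ly6Chigh libraries. The T2DM Ly6Chigh library has the highest neutrophil sum (847), most of which is Mmp8.

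The receptors of the ligands were measured in the same MCs, and 14 of 17 listed were among the entries. In the pooled test 3 were called higher in Ly6Chigh MCs and 3 lower, where 5.37% and 6.76% of all genes were. Those higher were Plxnb2 (log2FC 1.54, SE 0.08), Plxnd1 (2.05, SE 0.19) and Nrp1 (1.66, SE 0.21), which are plexin and neuropilin proteins of the semaphorin pathway. Sema4a, which binds plexins, was also higher in Ly6Chigh MCs. Those lower were Ctla4 (log2FC -4.13, SE 0.31), Cd2 (-4.06, SE 0.21), the receptor of Cd48, and Plxnb3 (-1.56, SE 0.33). Ctla4 had 0.38 and 0.82 in CT Ly6Chigh and 4.33 and 4.05 in CT Ly6Clow MCs, and Cd2 had 3.19 and 3.95 against 7.33 and 7.25. CTLA4 and CD2 are known from lymphocytes, and the part of lymphocytes in these values was not tested. Havcr2, the TIM-3 gene, ranged from 5.12 to 6.12 in Ly6Chigh and from 6.26 to 6.90 in Ly6Clow MCs, opposite to Lgals9, and was not called (pooled log2FC -0.76, SE 0.21, limma adjusted p-value 0.0210).

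Of 15 other costimulatory and checkpoint ligands measured, 2 were called lower in Ly6Chigh MCs in the pooled test and 0 higher. Among all genes, 6.76% were called lower and 5.37% higher. The ligands called were Cd24a (log2FC -1.57, SE 0.12), a membrane protein that binds a Siglec receptor, and Tnfsf8 (-2.99, SE 0.35), the CD30 ligand. Tnfsf8 was low in Ly6Chigh MCs, between -1.09 and 0.69. Both genes moved with the B cell and NK cell lists, and the part of such cells in their levels was not tested. Cd47, the don't-eat-me signal, did not pass, with values between 9.63 and 9.86 in all libraries.

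Interferon-gamma is known to raise Cd274, Cd40 and Lgals9. Of 8 genes of its pathway, Ifngr2, a receptor chain, was called higher in Ly6Chigh MCs in CT (log2FC 1.14, SE 0.05) and in the pooled test (1.12, SE 0.09). Among all genes, 2.1% were called higher in CT and 5.37% in the pooled test. Of 10 genes of CD40 signalling, only Traf1 was called, lower in Ly6Chigh MCs in the pooled test (log2FC -2.23, SE 0.35). That test called 6.76% of all genes lower. In Ly6Chigh MCs Traf1 had 3.43 in T1DM and 2.54 in T2DM against 4.72 and 4.08 in CT.

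For the 6 ligands whose mean log2 value reached 5, the 3 genes with the most similar pattern over the 8 libraries were found by the root mean square (rms) difference of centred log2 values, among 5228 genes. Cd274 was nearest to Cd36 (rms 0.19), a scavenger receptor, then Slc12a2 (0.22) and Fcgr4 (0.35). Cd36 had 4.91 and 4.88 in T1DM and T2DM Ly6Chigh MCs against 5.27 and 5.63 in CT, and 8.54 in T2DM Ly6Clow MCs. Lgals9 was nearest to Daxx (0.11), Dck (0.12) and Plac8 (0.14), which all had their lowest Ly6Chigh value in T2DM, at 5.67, 5.77 and 7.08. Vsir was nearest to Cask (0.11), Ap2a2 and Ralb (both 0.13), and Sema4a to Scarb2, Rhog and Glud1 (all 0.06). Icosl was nearest to Jmjd1c (0.07), Plp2 and Lpar6, and Cd48 to Stk35 (0.06), Rnf40 and Eif4g3, whose values vary little.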

How the data were processed

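Blood MCs were sorted into Ly6Chigh and Ly6Clow, and RNA-Seq libraries were run on 2 sequencers. Before depositing them, the authors quantified reads with Kallisto (v0.45), summarised transcripts to genes with version 1.12.3 of tximport under R version 3.6.1, and deposited normalised log2 values for 16486 entries. The labels name build mm10. The scaling between libraries and any adjustment between sequencers are not given in the sources used here. Each column was assigned to a sample by its title, and 0 columns of per-sample values were left unused.

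All log2FC were computed from the deposited log2 values without further normalisation, with limma (3.58.1, lmFit and eBayes with trend) in R 4.3.3 on all 16486 entries, after a check on simulated data. Comparisons with 1 library on a side have no test. Each result was recomputed with quantile normalisation, with 1 added on the linear scale, with eBayes without trend, at a limit of 0.05, and on the 12527 genes whose mean log2 value was 1 or more (the low-value filter). It was also recomputed with a block for the CT replicate number, on the diabetic libraries or 1 subset alone, and without each CT library or diabetic model. Tables and figures used Python 3.11.15, numpy 2.4.6, pandas 2.3.3 and matplotlib 3.10.9. The ligands, gene lists, marker lists and motifs were chosen with earlier results of these data known. Genes named are the 10 ligands, genes of each list called in the CT or pooled test (at most 6 a list) with the ligands' receptors, the 3 genes most like each ligand, and the most abundant gene and defining markers of cell type lists. In tests between mouse groups the 2 ligands with the lowest p-value were given. A few genes meeting these criteria are not reported here. Cmtm6, Cmtm4 and Cd47 were added after their values were seen. The deposited values hold no counts, so no depth or counting error can be given. The correlation across genes of the CT duplicates was 0.968 in both subsets. Promoter windows are from RefSeq (GRCm38.p6), with 8 of 10 ligands matched. The share of 31-base sequences that a ligand's GENCODE M21 transcripts have in common with other genes was highest for Cd40 (2.98%) and Cd274 (2.36%) and 0 for Pdcd1lg2, Vsir, Lgals9 and Cd48.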

Additional observations from a re-analysis of the deposited data

Results flagged for a closer look

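The T1DM and T2DM libraries of a subset lay outside both CT libraries on opposite sides for 6 ligands, and these differences were not tested. In Ly6Chigh MCs, T2DM minus T1DM was -1.33 (log2) for Lgals9, -1.56 for Cd40 and -0.41 for Cd48, with T1DM above and T2DM below CT. It was 0.22 for Sema4a, whose T1DM value was under the lower CT library by less than the digits printed (7.61 in both). In Ly6Clow MCs it was 0.60 for Cd80 and 0.74 for Pdcd1lg2, with T1DM below and T2DM above CT. The same pattern occurred in 25.9% of all genes in Ly6Chigh and 24.2% in Ly6Clow MCs.

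Cd48 was higher in Ly6Chigh than in Ly6Clow MCs in every pairing of CT libraries and lower in T2DM, a subset difference in T2DM minus that in CT of -0.57 (log2). Such an opposite sign in T2DM occurred in 14% of all genes, and the difference was not tested.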

How the results depend on the processing

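The 5 ligands called in the pooled test were called under every alternative except with the diabetic libraries only (0 ligands and 0 genes, 1 residual degree of freedom). Genes called in it ran from 1507 to 1737 without each CT library or each diabetic model, with 5 ligands each time. In CT, 3 ligands and 581 genes were called. Calls were 5 ligands and 1089 genes with the low-value filter, 5 and 1936 at an adjusted p-value under 0.05, and 5 ligands with 1 added on the linear scale. They were 0 ligands and 0 genes with eBayes without trend, with the replicate block (the CT replicate number as a factor, 1 residual degree of freedom) and without each CT library (0 to 0). The CT numbers did not pair the libraries (correlation of deviations 0.00892), and in the pooled test the replicate block kept 5 ligands. The causes were not tested, beyond the fewer samples.

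The sign in CT turned for Cd86 (-0.027) and Icosl (-0.038) after quantile normalisation. Without single CT libraries Cd86 ran from -0.26 to 0.30 and Icosl from -0.14 to 0.27 in CT. In the pooled test they ran from -0.153 to 0.0704 and from -0.155 to 0.0091 without single CT libraries or a diabetic model. Cd40 in diabetic minus CT Ly6Chigh MCs ran from -1.24 to 0.32, the latter without T2DM. At an adjusted p-value under 0.05, 3 genes were called in the difference of subset effects. T2DM against T1DM called 63 genes with the low-value filter and 27 after quantile normalisation, 0 of them ligands.

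Genes past 2-fold between the subsets were 2783 (low-value filter) in T1DM, and 3141 (1 added) and 2938 (filter) in T2DM. Against CT they were 431 and 622 in T1DM Ly6Chigh, 957 and 1167 in T2DM Ly6Chigh, 463 and 480 in T1DM Ly6Clow and 696 and 703 in T2DM Ly6Clow MCs, with 1 added and with the filter. Ligands past 2-fold without single CT libraries were 0 to 1 in T1DM and 1 to 2 in T2DM Ly6Chigh MCs.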
